A study of Mus musculus with 12 samples.

Results

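Glutathione synthesis and cystine uptake were followed through 9 genes: Gclc, Gclm, Gss, Gsr, Slc7a11, Slc3a2, Chac1, Ggct and Glrx. The members were chosen by name, and each name matched 1 row of the 54532 genes in the count table. All 9 passed the filter on low counts, which kept 15122 genes for testing.

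Glutathione is a tripeptide of glutamate, cysteine and glycine and the main small thiol of animal cells. Cystine, the oxidized form of cysteine, enters through the exchanger xCT (Slc7a11), which is held at the membrane by the CD98 heavy chain (Slc3a2). Glutamate-cysteine ligase, made of a catalytic subunit (Gclc) and a modifier subunit (Gclm), joins the first amino acids, and glutathione synthetase (Gss) adds glycine. Glutathione reductase (Gsr) regenerates the reduced form, glutaredoxin (Glrx) uses it to reduce protein disulfides, and Chac1 and Ggct act in its breakdown. Several of these genes are known targets of NRF2, a transcription factor that KEAP1, an adaptor of a CUL3 ubiquitin ligase, marks for degradation.

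The samples were C2C12 cells, an immortalized mouse myoblast line that fuses into myotubes when serum is withdrawn. Cells were transfected for 48 h with 30 nM of siCONTROL, of siKEAP1, of siCCNF or of the combination (siKEAP1/siCCNF). siKEAP1 targets KEAP1, and siCCNF targets cyclin F, the F-box adaptor of a CUL1 ubiquitin ligase. Whether each siRNA of the combination was at 30 nM or at a lower dose is not stated in the sources used here. Each of the 4 groups had 3 biological replicates, and poly(A) RNA was sequenced. The comparisons ask how the transcripts respond to loss of each adaptor, and whether loss of cyclin F alters the response to loss of KEAP1.

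Libraries held 18464209 to 37743198 counts. Levels in CPM are counts scaled to the library total, which was adjusted by a scaling factor per library (TMM). Keap1 was at 87.8 ± 3.05 CPM (mean ± SD, n = 3) in siCONTROL, 12.6 ± 0.279 in siKEAP1, 85.1 ± 4.35 in siCCNF and 24.1 ± 2.56 in siKEAP1/siCCNF. Ccnf was at 81.1 ± 3.99, 59.4 ± 4.83, 20.5 ± 0.778 and 24.5 ± 1.01 CPM in the same order. Both targeted transcripts were thus lowest in the groups that received their siRNA, but Keap1 was 1.91-fold higher in the double depletion than in siKEAP1 alone (adjusted p = 1.07e-06, edgeR). The siCONTROL replicate 1 and siKEAP1/siCCNF replicate 3 libraries stood apart from the other replicates of their groups. Chi-square per gene was 28.0 to 41.0 in pairs that held either of them and 2.88 to 13.0 in the other pairs. Their deviations from the group mean correlated with gene length at r = -0.305 and -0.276, against 0.152 to 0.206 in their group mates. In the siKEAP1 and siCCNF libraries r was -0.0944 to 0.0942. Removal of a length trend was among the alternatives run. All 5 myoblast markers (Myod1, Myf5, Des, Cdh15 and Chrna1) were detected, and their summed level was 1230 to 1557 CPM in siCONTROL, 666 to 720 in siKEAP1, 485 to 504 in siCCNF and 470 to 564 in siKEAP1/siCCNF. The summed level of 12 myocyte markers was 67.7 to 163 CPM in siCONTROL, 4.26 to 4.80 in siKEAP1, 21.3 to 31.1 in siCCNF and 8.60 to 10.3 in siKEAP1/siCCNF. Both marker sums were scaled to library totals without the TMM factor. The 5 myoblast markers were lower than siCONTROL in all 3 depletion groups (edgeR), and of 9 myocyte markers tested, 9 were lower in siKEAP1, 8 in siCCNF and 9 in siKEAP1/siCCNF. The part of these marker shifts in the differences between groups below was not tested. Fewer cells of a kind and less RNA per cell cannot be told apart in these bulk samples.

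Promoter windows from RefSeq (build GRCm38.p6; 250 bases before to 50 after a start site) were found for 7 of the 9 genes; the table used here had none for Gclc and Gsr. Both strands were searched for the core of the antioxidant response element (TGACNNNGC), the site bound by NRF2 with small MAF proteins, and for the C/EBP-ATF response element (TGATGNAA), the site bound by ATF4. The stretches that hold the matches of 4 genes (for Ggct, the upstream one of 2) are shown 5′ to 3′ on the strand of the gene. Capitals mark the matches. Whether the matches bear on the responses below was not tested.
Slc7a11, chr3:50443640-50443699, minus strand, 86 to 27 bases before the start: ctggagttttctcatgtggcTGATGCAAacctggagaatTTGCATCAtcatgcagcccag
Chac1, chr2:119351023-119351082, plus strand, 219 to 160 bases before the start: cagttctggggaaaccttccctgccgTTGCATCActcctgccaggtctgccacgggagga
Gclm, chr3:122245397-122245456, plus strand, 160 to 101 bases before the start: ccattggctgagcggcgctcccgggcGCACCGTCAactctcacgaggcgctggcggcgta
Ggct, chr6:54993008-54993067, minus strand, 200 to 141 bases before the start: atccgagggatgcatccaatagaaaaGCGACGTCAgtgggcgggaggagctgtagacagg

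The Slc7a11 stretch holds 2 copies of the C/EBP-ATF element in opposite orientation, and Chac1 holds 1. Among 32544 distinct promoter windows of mouse genes, 3.91% held this motif at least once and 0.0707% held 2 or more. The antioxidant response element core occurred once in Gclm and 2 times in Ggct, at 174 bases before and 6 bases after the start. It occurred in 12.4% of all windows and in 2 or more copies in 0.986%. Gss, Slc3a2 and both windows of Glrx held neither run of letters. The RefSeq Slc7a11 locus has more than the start searched here. For Slc3a2 the window (chr19:8713848-8714147, minus strand) lay within the annotated gene (8706882 to 8723369). The outermost annotated start of Slc3a2 was thus not searched. A match is a run of letters, with no binding measured.

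**Figure D1:**
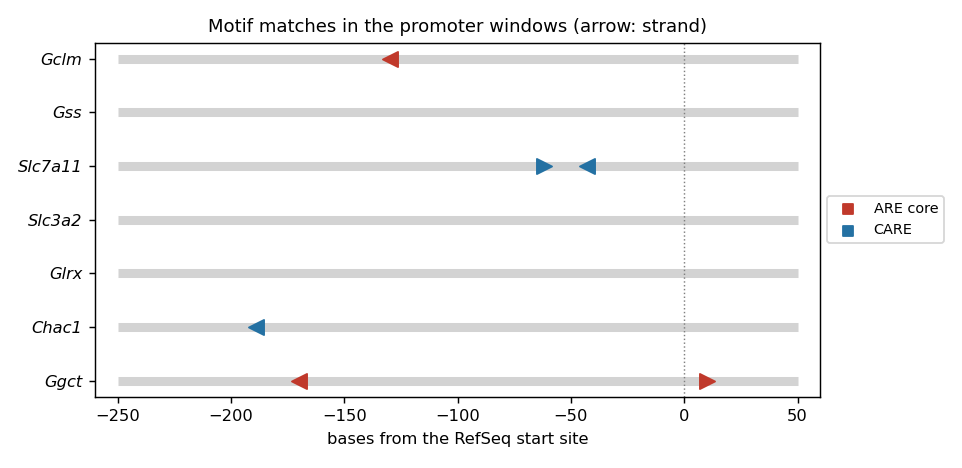
Matches to the antioxidant response element core (ARE core, red) and the C/EBP-ATF response element (CARE, blue) in the promoter windows of 7 genes, by distance in bases from the RefSeq start site; arrows point right for the strand of the gene and left for the other. Slc7a11 has 2 CARE matches, Chac1 1, Ggct 2 ARE core matches and Gclm 1, and the second Glrx window, not drawn, has none.

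Depletion of KEAP1 raised 7 of the 9 transcripts (adjusted p under 0.05, edgeR quasi-likelihood test with Benjamini-Hochberg adjustment over all tested genes), in a comparison where 20.4% of tested genes rose. These were Gclc, Gclm, Gss, Gsr, Slc7a11, Ggct and Glrx. Chac1 was called lower, as were 20.2% of tested genes, and Slc3a2 was not called. Gclc, Gclm, Gss, Gsr and Slc7a11 (5 of 9) were changed more than 2-fold, against 11.5% of tested genes. Without the 2 libraries that stood apart, a setting chosen after seeing the data, 7 of the 9 were called and Chac1 was not. The share of tested genes called under that setting is not given here. The median log2 fold change was 1.42 over the 9 transcripts and -0.01 over all tested genes.

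Depletion of CCNF alone gave smaller differences. Gclc, Gclm, Gsr and Glrx were lower than in siCONTROL (4 of 9, against 25.5% of tested genes) and Ggct was higher (1 of 9, against 22.5%). None of the 9 was changed more than 2-fold at any p, compared with 11.4% of tested genes at an adjusted p under 0.05 (edgeR). Their log2 fold changes ran from -0.96 for Gclm to 0.55 for Ggct. Without the 2 libraries that stood apart, 7 of the 9 were called, Slc3a2 and Chac1 being added as higher. Without siCONTROL replicate 1 alone, 6 were called. Without siCONTROL replicate 2 or 3, siCCNF replicate 1 or any siKEAP1 replicate, 3 of the 9 were called. The shares of tested genes above are those of the main fit, and the shares under these settings are not given here. When KEAP1 and CCNF were both depleted, Gclc, Gsr, Slc7a11 and Ggct were above siCONTROL (4 of 9, against 20.6%), Glrx was below it (1 of 9, against 23.6%), and Gclc alone passed the 2-fold limit (1 of 9, against 10.3%). These 3 comparisons share the siCONTROL libraries. The median log2 fold change over the 9 transcripts was -0.20 for siCCNF and 0.15 for siKEAP1/siCCNF.

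**Figure D2:**
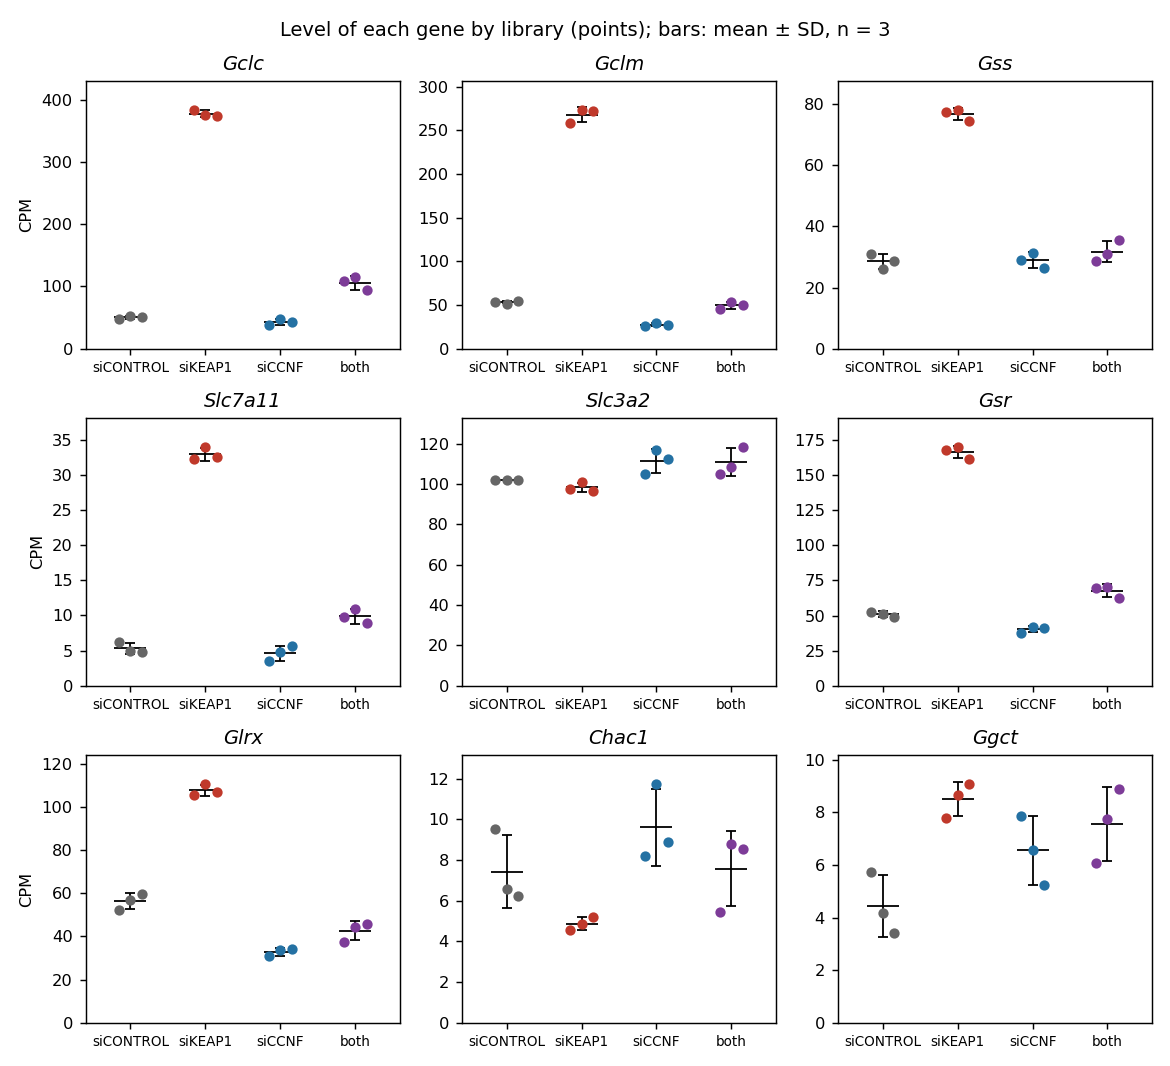
Level of the 9 transcripts in CPM (vertical axes, each starting at 0) in the 12 libraries (points) by siRNA group ("both" is siKEAP1/siCCNF), with the mean and SD of 3 replicates. In the siKEAP1 group Gclc sits at 374 to 384 CPM and under both siRNAs at 93.6 to 115, while Slc3a2 stays between 96.7 and 118 CPM in all 12 libraries.

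**Figure D3:**
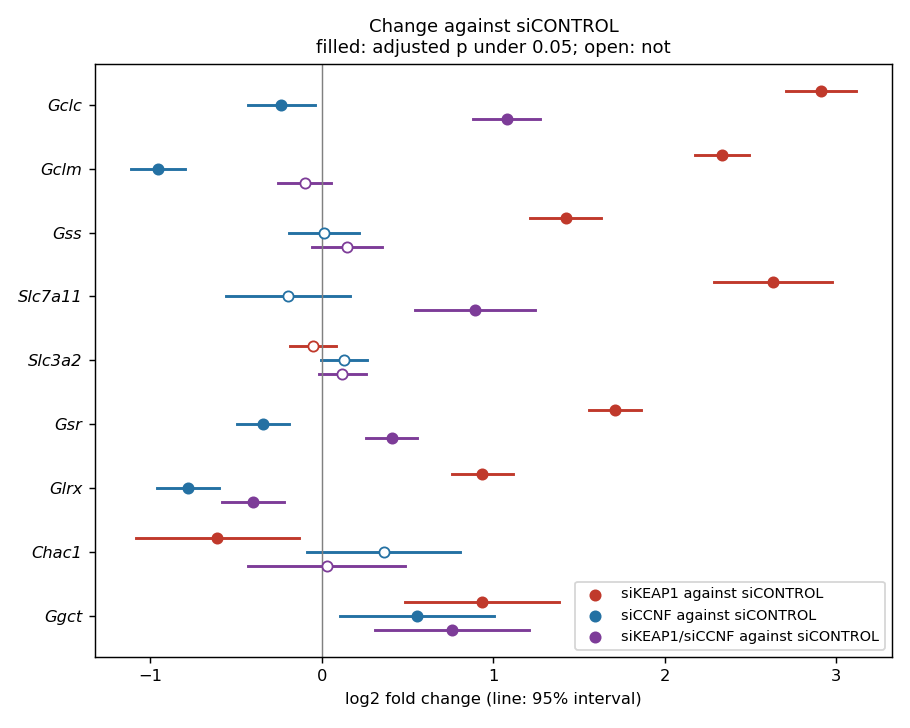
Fitted log2 fold change of each transcript against siCONTROL (horizontal axis) with its 95% interval, for siKEAP1 (red), siCCNF (blue) and siKEAP1/siCCNF (purple); filled points passed an adjusted p of 0.05. The siKEAP1 values run from -0.61 for Chac1 to 2.91 for Gclc, and the siCCNF values from -0.96 for Gclm to 0.55 for Ggct.

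The catalytic subunit of the ligase, Gclc (ENSMUSG00000032350, chromosome 9, 77754535 to 77794485, plus strand), gave the highest siKEAP1 fold change of the 9. Its level was 47.3, 51.8 and 51.6 CPM in siCONTROL, 384, 375 and 374 CPM in siKEAP1, 37.98, 47.1 and 43.0 CPM in siCCNF, and 109, 115 and 93.6 CPM in siKEAP1/siCCNF. No 2 of these groups overlapped. The rise after siKEAP1 was 7.52-fold (log2 fold change 2.91 ± 0.09, SE, adjusted p = 2.86e-10, edgeR). After the double depletion it was 2.11-fold (log2 1.08 ± 0.09, adjusted p = 8.94e-07, edgeR). The siCCNF difference was small (log2 -0.24 ± 0.09, adjusted p = 0.0462, edgeR) and was lost without siCCNF replicate 1, where the log2 fold change was -0.16 (adjusted p = 0.198, edgeR), and under 11 other alternatives.

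The modifier subunit, Gclm (ENSMUSG00000028124, chromosome 3, 122245557 to 122270732, plus strand), rose with Gclc but fell further with siCCNF. It was at 53.8, 51.4 and 54.3 CPM in siCONTROL, 259, 274 and 272 CPM in siKEAP1, 26.1, 29.0 and 27.2 CPM in siCCNF, and 45.4, 53.7 and 49.6 CPM in siKEAP1/siCCNF. The double depletion overlapped siCONTROL, whereas the single depletions lay on either side of it. Against siCONTROL, Gclm was 5.04-fold higher in siKEAP1 (log2 2.33 ± 0.07, adjusted p = 2.32e-10, edgeR) and at 0.515 of the level in siCCNF (log2 -0.96 ± 0.07, adjusted p = 2.83e-07, edgeR). The difference in siKEAP1/siCCNF was not called (log2 -0.10, 95% interval -0.25 to 0.05, adjusted p = 0.273, edgeR).

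Glutathione synthetase, Gss (ENSMUSG00000027610, chromosome 2, 155563181 to 155592810, minus strand), was higher in siKEAP1 and in no other group. It was at 31.0, 26.1 and 28.8 CPM in siCONTROL, 77.5, 78.3 and 74.7 CPM in siKEAP1, 29.1, 31.5 and 26.4 CPM in siCCNF, and 28.7, 31.1 and 35.5 CPM in siKEAP1/siCCNF. The siKEAP1 libraries lay above all others and the remaining 3 groups overlapped. The siKEAP1 rise was 2.68-fold (log2 1.42 ± 0.09, adjusted p = 1.09e-07, edgeR). The 95% interval of the log2 fold change was -0.19 to 0.22 for siCCNF and -0.06 to 0.35 for siKEAP1/siCCNF, neither of which was called. Gss overlaps Acss2, a protein-coding gene of the opposite strand with up to 1604 counts, and strand-aware counting is not given in the sources used here.

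Since both ligase subunits enter 1 enzyme, their ratio was computed per library from FPKM (fragment counts scaled to gene length and library size). The Gclc to Gclm ratio was 1.47, 1.68 and 1.59 in siCONTROL, 2.48, 2.29 and 2.30 in siKEAP1, 2.43, 2.71 and 2.64 in siCCNF, and 4.02, 3.58 and 3.15 in siKEAP1/siCCNF. Each depletion group lay above siCONTROL and the double depletion lay above both single depletions, without overlap. Against siCONTROL the ratio was 1.49-fold higher in siKEAP1, 1.64-fold in siCCNF and 2.26-fold in siKEAP1/siCCNF, each with p = 0.1 in a two-sided exact permutation test, the smallest p that 3 against 3 libraries allow. The double depletion exceeded siKEAP1 by 1.51-fold and siCCNF by 1.38-fold (exact permutation p = 0.1 for each). These 5 comparisons per ratio cannot reach 0.05 and remain 0.1 at best before any adjustment.

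**Figure D4:**
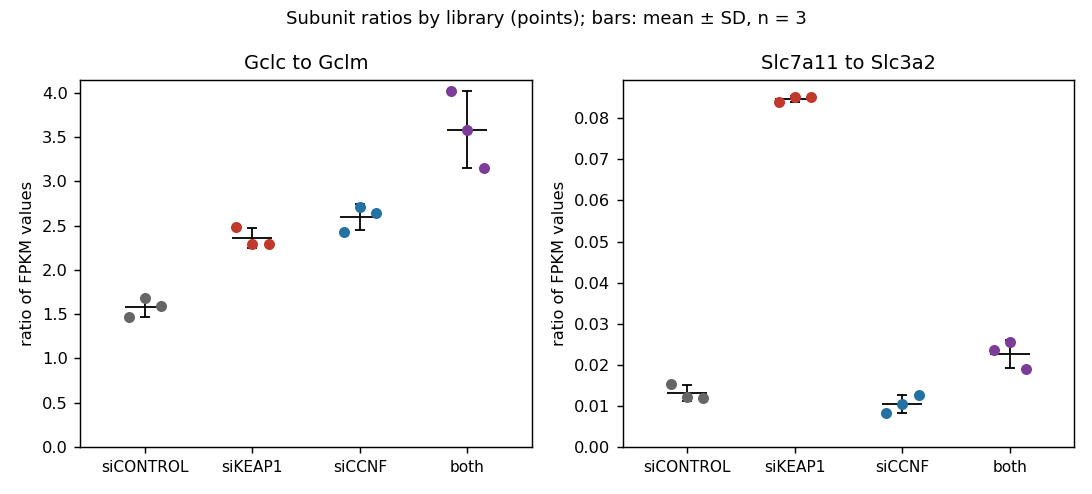
Ratio of Gclc to Gclm (left) and of Slc7a11 to Slc3a2 (right) FPKM values (vertical axes, starting at 0) in the 12 libraries (points), with mean and SD of 3 replicates. The Gclc to Gclm ratio is 3.15 to 4.02 under both siRNAs and at most 1.68 in siCONTROL, whereas the Slc7a11 to Slc3a2 ratio is 0.0840 to 0.0853 in siKEAP1 and at most 0.0255 in all other groups.

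The partners in cystine uptake responded differently from each other. The transporter Slc7a11 (ENSMUSG00000027737, chromosome 3, 49892526 to 50443614, minus strand) was at 6.19, 4.88 and 4.82 CPM in siCONTROL, 32.3, 34.0 and 32.5 CPM in siKEAP1, 3.45, 4.86 and 5.58 CPM in siCCNF, and 9.76, 10.9 and 8.87 CPM in siKEAP1/siCCNF. The siKEAP1 libraries were highest, the double depletion lay between them and siCONTROL, and siCCNF overlapped siCONTROL. Slc7a11 rose 6.20-fold after siKEAP1 (log2 2.63 ± 0.16, adjusted p = 4.66e-08, edgeR) and 1.86-fold after the double depletion (log2 0.90 ± 0.16, adjusted p = 0.000559, edgeR). The siCCNF difference was not called (log2 -0.20, 95% interval -0.56 to 0.17). Its lowest library held 90 counts.

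The heavy chain Slc3a2 (ENSMUSG00000010095, chromosome 19, 8706882 to 8723369, minus strand) was the least variable of the 9. It was at 102, 102 and 102 CPM in siCONTROL, 97.4, 101 and 96.7 CPM in siKEAP1, 105, 117 and 112 CPM in siCCNF, and 105, 109 and 118 CPM in siKEAP1/siCCNF. Although siKEAP1 lay just below siCONTROL and both CCNF-depleted groups above it without overlap, none of these differences was called. The 95% interval of the log2 fold change was -0.19 to 0.08 for siKEAP1, -0.01 to 0.26 for siCCNF and -0.02 to 0.26 for siKEAP1/siCCNF. The Slc7a11 to Slc3a2 FPKM ratio was accordingly 0.0132 ± 0.00193 in siCONTROL, 0.0848 ± 0.000728 in siKEAP1, 0.0105 ± 0.00213 in siCCNF and 0.0227 ± 0.00335 in siKEAP1/siCCNF (SD, n = 3). Relative to siCONTROL it was 6.49-fold higher in siKEAP1 and 1.72-fold higher in the double depletion (exact permutation p = 0.1 for each). In siCCNF it was at 0.790 of the siCONTROL ratio (exact permutation p = 0.3).

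Glutathione reductase, Gsr (ENSMUSG00000031584, chromosome 8, 33652523 to 33698163, plus strand), moved with Gclc at a smaller size. Its level was 52.8, 51.3 and 48.9 CPM in siCONTROL, 168, 170 and 162 CPM in siKEAP1, 37.7, 41.9 and 41.0 CPM in siCCNF, and 69.9, 70.6 and 62.3 CPM in siKEAP1/siCCNF. No 2 groups overlapped. The fold was 3.27 in siKEAP1 (log2 1.71 ± 0.07, adjusted p = 1.72e-09, edgeR), 0.788 in siCCNF (log2 -0.34 ± 0.07, adjusted p = 0.00117, edgeR) and 1.33 in siKEAP1/siCCNF (log2 0.41 ± 0.07, adjusted p = 0.000342, edgeR).

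Glutaredoxin, Glrx (ENSMUSG00000021591, chromosome 13, 75839868 to 75850154, plus strand), was the single member called lower than siCONTROL after the double depletion. It was at 52.4, 56.8 and 59.6 CPM in siCONTROL, 105, 111 and 107 CPM in siKEAP1, 30.7, 33.7 and 34.0 CPM in siCCNF, and 37.5, 44.5 and 45.9 CPM in siKEAP1/siCCNF. The 4 groups did not overlap, and both CCNF-depleted groups lay below siCONTROL. The log2 fold change was 0.94 ± 0.08 for siKEAP1 (adjusted p = 1.37e-06, edgeR), -0.78 ± 0.08 for siCCNF (adjusted p = 6.53e-06, edgeR) and -0.40 ± 0.08 for siKEAP1/siCCNF (adjusted p = 0.00158, edgeR).

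Chac1 (ENSMUSG00000027313, chromosome 2, 119351229 to 119354381, plus strand), which cleaves glutathione in the cytosol and is known as a target of ATF4, ran the other way. It was at 9.50, 6.57 and 6.21 CPM in siCONTROL, 4.55, 4.86 and 5.22 CPM in siKEAP1, 8.18, 11.7 and 8.88 CPM in siCCNF, and 5.44, 8.78 and 8.52 CPM in siKEAP1/siCCNF. The siKEAP1 libraries were below every other library, and the other 3 groups overlapped. The fold in siKEAP1 was 0.655 (log2 -0.61 ± 0.22, adjusted p = 0.0408, edgeR). The call did not hold without siCONTROL replicate 1 (log2 -0.40, adjusted p = 0.167, edgeR) and without any of siKEAP1 replicates 1, 2 and 3 (adjusted p = 0.106, 0.0913 and 0.0681, edgeR). In siCCNF the log2 fold change was 0.36 (95% interval -0.09 to 0.81, adjusted p = 0.171, edgeR), and without siCONTROL replicate 1, the highest siCONTROL library, it was 0.58 and called (adjusted p = 0.0336, edgeR). The lowest library held 98 counts.

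Ggct (ENSMUSG00000002797, chromosome 6, 54982580 to 54992950, minus strand), gamma-glutamylcyclotransferase, acts on gamma-glutamyl dipeptides. It was at 5.74, 4.18 and 3.42 CPM in siCONTROL, 7.80, 8.67 and 9.08 CPM in siKEAP1, 7.87, 6.57 and 5.23 CPM in siCCNF, and 6.07, 7.73 and 8.87 CPM in siKEAP1/siCCNF. The siKEAP1 and siKEAP1/siCCNF libraries all lay above siCONTROL, while siCCNF overlapped it. The fold was 1.91 in siKEAP1 (log2 0.93 ± 0.21, adjusted p = 0.00282, edgeR) and 1.69 in siKEAP1/siCCNF (log2 0.76 ± 0.21, adjusted p = 0.00949, edgeR). The siCCNF value was log2 0.55 ± 0.21 (adjusted p = 0.0418, edgeR), a call that was lost without siCONTROL replicate 2 or 3, without siCCNF replicate 1 or 2 and under 9 other alternatives. Its lowest library held 71 counts.

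The effect of adding siKEAP1 was next compared in cells with and without CCNF depletion. Relative to siCCNF, siKEAP1/siCCNF was higher in Gclc, Gclm, Gsr, Slc7a11 and Glrx (5 of 9), in a comparison where 3.00% of tested genes rose and 2.19% fell; 0 of the 9 fell, by edgeR, DESeq2 or limma or at an unadjusted p under 0.05. The folds were 2.49 for Gclc (adjusted p = 3.15e-06, edgeR), 2.13 for Slc7a11 (adjusted p = 0.00143, edgeR) and 1.81 for Gclm (adjusted p = 1.92e-05, edgeR). Gsr was 1.68-fold higher (adjusted p = 3.63e-05, edgeR) and Glrx 1.30-fold (adjusted p = 0.0194, edgeR). The 5 transcripts thus still responded to siKEAP1 in CCNF-depleted cells. The Glrx call was lost without siCCNF replicate 1, 2 or 3 or siKEAP1/siCCNF replicate 2 or 3 (adjusted p = 0.0568 to 0.107, edgeR). For Gss the log2 difference was 0.13 (95% interval -0.07 to 0.34), for Ggct 0.20 (-0.22 to 0.63), for Slc3a2 -0.01 (-0.14 to 0.13) and for Chac1 -0.33 (-0.77 to 0.11), none of which was called.

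The interaction term tests whether the log2 effect of siKEAP1 differs between the backgrounds. It was negative for 6 of the 9 (Gclc, Gclm, Gss, Gsr, Slc7a11 and Glrx) at an adjusted p under 0.05, compared with 10.5% of tested genes, and positive for 0, compared with 10.6%; DESeq2, limma and an unadjusted p under 0.05 also gave 0. The value was -1.60 ± 0.13 for Gclc (adjusted p = 5.20e-06, edgeR), -1.54 ± 0.22 for Slc7a11 (adjusted p = 0.000358, edgeR) and -1.48 ± 0.10 for Gclm (adjusted p = 1.44e-06, edgeR). It was -1.29 ± 0.13 for Gss (adjusted p = 3.29e-05, edgeR), -0.96 ± 0.10 for Gsr (adjusted p = 2.85e-05, edgeR) and -0.56 ± 0.12 for Glrx (adjusted p = 0.00442, edgeR). The siKEAP1 effect on these transcripts was therefore smaller when CCNF was also depleted, in cells where the Keap1 transcript itself was less depleted (24.1 against 12.6 CPM); the part of that difference was not tested. For Ggct the interaction was -0.73 (95% interval -1.35 to -0.11, adjusted p = 0.0923, edgeR). It was called without siCONTROL replicate 1 (log2 -0.96, adjusted p = 0.0212, edgeR). For Slc3a2 it was 0.04 (-0.15 to 0.23) and for Chac1 0.28 (-0.37 to 0.92).

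**Figure D5:**
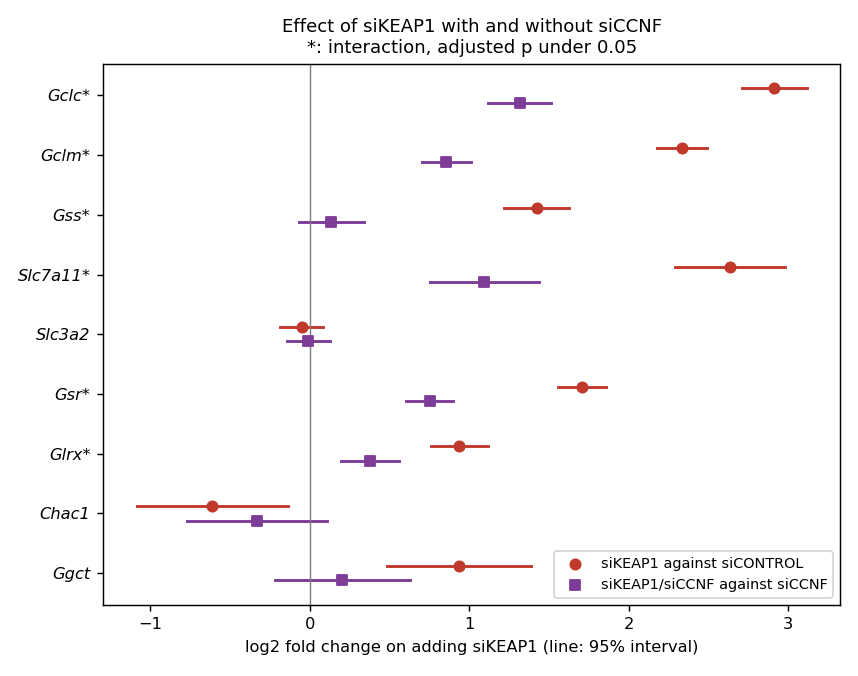
Log2 fold change on adding siKEAP1 (horizontal axis, with 95% interval) in cells without siCCNF (red circles, siKEAP1 against siCONTROL) and with siCCNF (purple squares, siKEAP1/siCCNF against siCCNF); an asterisk marks an interaction at an adjusted p under 0.05. Gclc goes from 2.91 to 1.31, Gclm from 2.33 to 0.86 and Gss from 1.42 to 0.13, whereas Slc3a2 stays at -0.05 and -0.01.

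Directly against siKEAP1, the double depletion was lower in the 6 transcripts with an interaction (6 of 9, against 26.9% of tested genes) and higher in Slc3a2 and Chac1 (2 of 9, against 24.1%). The remaining fraction of the siKEAP1 level was 0.185 for Gclm, 0.281 for Gclc, 0.300 for Slc7a11, 0.396 for Glrx, 0.406 for Gsr and 0.414 for Gss, with adjusted p from 3.23e-10 to 6.83e-07 (edgeR). Of these 6, Gclm kept the smallest fraction, and differences between neighbours in this order were not tested. Slc3a2 was 1.13-fold (adjusted p = 0.0371, edgeR) and Chac1 1.56-fold (adjusted p = 0.0253, edgeR) above siKEAP1. Both calls were lost without siKEAP1 replicate 1 or 2 or siKEAP1/siCCNF replicate 2 or 3, and the Slc3a2 call also without siKEAP1 replicate 3. For Ggct the log2 difference was -0.17 (95% interval -0.60 to 0.25).

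Per length, the order of the transcripts differed between groups. In siCONTROL the mean level was 28.7 FPKM for Slc3a2, 18.4 for Gsr, 13.2 for Gclc, 10.2 for Glrx, 8.39 for Gclm, 4.81 for Gss, 4.50 for Chac1, 0.570 for Ggct and 0.377 for Slc7a11. The neighbours Gss and Chac1 overlapped, as did Ggct and Slc7a11, and the others did not. In siKEAP1 Gclc led at 100.04 FPKM, followed by Gsr at 60.3, Gclm at 42.5, Slc3a2 at 27.8, Glrx at 19.5, Gss at 12.9, Chac1 at 2.97, Slc7a11 at 2.36 and Ggct at 1.10, with no neighbours overlapping. Slc7a11, the least abundant per length in siCONTROL, siCCNF and siKEAP1/siCCNF, thus passed Ggct in siKEAP1. In siKEAP1/siCCNF Slc3a2 (31.2 FPKM), Gclc (28.0) and Gsr (24.4) overlapped as neighbours in the order, and Gclm (7.83) overlapped Glrx (7.71). In siCCNF Slc3a2 (31.3 FPKM) was followed by Gsr (14.5) and Gclc (11.2), while Glrx (5.91), Chac1 (5.81), Gss (4.85) and Gclm (4.32) overlapped from neighbour to neighbour. The authors divided by 1 length per gene, 13922 bases for Slc7a11 and 1637 for Chac1, and whether the transcripts present span that length was not tested.

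Across the 12 libraries the log2 levels of Gclc, Gclm, Gss, Gsr and Slc7a11 had Pearson correlations of 0.93 to 0.99 with each other. Chac1 ran against them (-0.67 to -0.79), as did Slc3a2 (-0.50 to -0.69), and these 2 had r = 0.763 with each other. Of 11825 genes with a mean of at least 1 log2 CPM, Txnrd1, thioredoxin reductase, was most like Gclc (r = 0.995) and Gsr (r = 0.998), and G6pdx, the first enzyme of the pentose phosphate pathway, was most like Gclm (r = 0.997). Gss was closest to Ap1g2 (r = 0.991), Slc7a11 to Gclc (r = 0.99) and Glrx to Parvb (r = 0.995). The correlations were lower for Slc3a2 with Alkbh3 (r = 0.94), Ggct with Dcxr (r = 0.934) and Chac1 with Yars (r = 0.926). The points are libraries of 4 groups, so these values are descriptions without a test.

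The other genes of the pathway were taken from 7 lists with 67 genes, of which 59 were tested. siKEAP1 changed 29 of the 59, where 40.6% of all tested genes were called in either direction, and siCCNF changed 33, where 47.9% were, so neither count stood far from the background. Among 12 genes of glutathione breakdown and export, 9 were tested and siKEAP1 raised 5 and lowered 0 (edgeR; 1 lower at an unadjusted p under 0.05, and 0 by DESeq2 and limma), with a median log2 fold change of 0.45, where 20.4% of all tested genes rose and 20.2% fell. These included Oplah, 5-oxoprolinase (log2 0.70 ± 0.10, adjusted p = 0.000119, edgeR), Ggt7, a gamma-glutamyltransferase family member (0.70 ± 0.11, adjusted p = 0.000181, edgeR), and Abcc1, an exporter of glutathione conjugates (0.45 ± 0.13, adjusted p = 0.0132, edgeR). Chac2, the Chac1 paralog, was not called (0.22 ± 0.15, adjusted p = 0.263, edgeR). After siCCNF 4 of the 9 were higher and 2 lower, against 22.5% and 25.5% of all tested genes.

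A further list held genes that supply cysteine and genes that consume it. Of 10 tested (13 listed), siCCNF lowered 6 and raised 0 (edgeR; 0 higher also by DESeq2, limma and at an unadjusted p under 0.05), and siKEAP1 raised 1 and lowered 2, with medians of -0.25 and -0.11 on the log2 scale. The shares of all tested genes were 25.5% lower and 22.5% higher in siCCNF, and 20.4% higher and 20.2% lower in siKEAP1. Cbs, cystathionine beta-synthase, fell from 4.34 ± 0.193 CPM in siCONTROL to 0.488 ± 0.147 CPM in siCCNF (log2 -3.16 ± 0.29, adjusted p = 1.60e-06, edgeR). Cth, which releases cysteine from cystathionine, was at log2 -0.73 ± 0.21 (adjusted p = 0.0116, edgeR), and Slc1a4, a neutral amino acid transporter, at -1.55 ± 0.08 (adjusted p = 1.01e-08, edgeR). In siKEAP1 Slc1a4 was slightly higher (0.27 ± 0.07, adjusted p = 0.00977, edgeR) and Cth was not called (0.20 ± 0.21). The Cth call in siCCNF was lost without siCONTROL replicate 1 (adjusted p = 0.0588, edgeR) or siCCNF replicate 3 (adjusted p = 0.0551, edgeR), and the Slc1a4 call in siKEAP1 without siCONTROL replicate 2 (adjusted p = 0.0577, edgeR).

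In the 8 genes of glutamate and glycine supply, siKEAP1 raised 4 and lowered 1 (20.4% and 20.2% of all tested genes), and siCCNF raised 1 and lowered 4 (22.5% and 25.5%). The glutamine transporter Slc1a5 was higher in siKEAP1 (log2 0.59 ± 0.10, adjusted p = 0.000355, edgeR) and lower in siCCNF (-1.11 ± 0.10, adjusted p = 1.83e-06, edgeR). Of 6 other glutaredoxin and mitochondrial glutathione genes, siKEAP1 changed 0 (edgeR; 0 by DESeq2 and limma, and 2 at an unadjusted p under 0.05), and siCCNF raised 1, Glrx2 (0.37 ± 0.09), and lowered 1, the mitochondrial glutathione importer Slc25a39 (-0.77 ± 0.09, adjusted p = 1.29e-05, edgeR). In siKEAP1 Slc25a39 was at 0.20 ± 0.09, Glrx2 at 0.20 ± 0.09 and Glrx5 at -0.25 ± 0.15; without siCONTROL replicate 1, Slc25a39 (0.30, adjusted p = 0.00614, edgeR) and Glrx2 (0.29, adjusted p = 0.00957, edgeR) were called. Without that library Glrx3 (0.32, adjusted p = 0.0058, edgeR) and Glrx5 (0.60, adjusted p = 0.000164, edgeR) were also called higher in siCCNF, against 0.19 and 0.35, not called, with it.

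Slc3a2 also pairs with other light chains, of which 3 of 5 were tested. Slc7a5, the large neutral amino acid transporter, was lower in siKEAP1 (log2 -0.32 ± 0.09, adjusted p = 0.0103, edgeR) and in siCCNF (-0.67 ± 0.09, adjusted p = 3.70e-05, edgeR). Slc7a6 was lower in siKEAP1 (-0.36 ± 0.08, adjusted p = 0.00273, edgeR) and higher in siCCNF (0.43 ± 0.08, adjusted p = 0.000558, edgeR). Slc7a11 rose after siKEAP1 while these 2 fell.

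Of 8 regulators, Keap1 included, siKEAP1 raised 4 and lowered 4, against 20.4% and 20.2% of all tested genes. Nfe2l2, which encodes NRF2, was lower in siKEAP1 (log2 -0.19 ± 0.05, adjusted p = 0.0128, edgeR), siCCNF (-0.41 ± 0.05, adjusted p = 3.75e-05, edgeR) and siKEAP1/siCCNF (-0.64 ± 0.05, adjusted p = 9.26e-07, edgeR). Mafg, a small MAF partner of NRF2, was 1.89-fold higher in siKEAP1 (adjusted p = 2.56e-07, edgeR) with an interaction of -0.58 ± 0.09 (adjusted p = 0.000824, edgeR), and Bach1, a repressor at the same sites, was 1.33-fold higher (adjusted p = 0.0196, edgeR). Atf4 was lower in siKEAP1 (log2 -0.63 ± 0.10, adjusted p = 0.000158, edgeR), and lower in siKEAP1/siCCNF (-0.27 ± 0.10, adjusted p = 0.034, edgeR). Of 15 ATF4 target genes, siKEAP1 raised 2 and lowered 4 (20.4% and 20.2% of all tested genes), and siCCNF raised 5 and lowered 3 (22.5% and 25.5%), counts near the background. In siKEAP1 Trib3 (0.45 ± 0.24) and Ddit3 (-0.31 ± 0.13) were not called, and in siCCNF Ddit3 was higher (0.48 ± 0.12, adjusted p = 0.00579, edgeR) and Asns was not called (0.31 ± 0.18). Without siCONTROL replicate 1, Trib3 in siKEAP1 (0.76, adjusted p = 0.0162, edgeR) and Asns in siCCNF (0.60, adjusted p = 0.00212, edgeR) were called, and the Bach1 (0.32, adjusted p = 0.068, edgeR) and siKEAP1/siCCNF Atf4 (-0.14, adjusted p = 0.0916, edgeR) calls were lost. The Atf4 call was also lost without siKEAP1/siCCNF replicate 1 or 2, the Bach1 call without siKEAP1 replicate 1 or 3, and the Nfe2l2 call in siKEAP1 without siKEAP1 replicate 1 (adjusted p = 0.0505, edgeR). Ddit3 was called lower in siKEAP1 without siCONTROL replicate 3 (adjusted p = 0.033, edgeR) or siKEAP1/siCCNF replicate 3 (adjusted p = 0.0317, edgeR).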

How the data were processed

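Poly(A) RNA of 12 C2C12 samples (4 groups of 3 biological replicates, as the labels give them) was sequenced and processed by a service provider. The authors deposited 1 table with whole-number counts per gene, not normalized, and FPKM values, which are those counts divided by 1 length per gene and by 1 constant per library. The table also holds the authors' own comparisons (log2 fold changes, p-values and group means of each depletion against control), which were not used. The submitters' processing notes name HISAT2 and GRCm39, but the coordinates in the table match the GENCODE annotation of GRCm38, so coordinates are given as in the table and promoter windows come from RefSeq GRCm38.p6. The counting tool and its strand setting are not given in the sources used here, nor is which Ccnf siRNA was used for sequencing. The labels and the study's methods give different serum contents for the growth medium.

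For the summed markers, which include genes not tested, CPM is the count divided by the total count of the library. For all other levels, the count was divided by the total over the genes kept by the filter, multiplied by the TMM factor. Genes were filtered with edgeR's filterByExpr (15122 kept), scaled with TMM (factors 0.971 to 1.02), and tested with edgeR 4.0.16 (quasi-likelihood, R 4.3.3) in 1 fit of 4 group means over the 12 libraries, with 6 contrasts: each depletion against siCONTROL, the double against each single depletion, and the interaction. A call is a Benjamini-Hochberg adjusted p under 0.05 over all tested genes; a fold limit of 2, used by the study, gave further counts. Errors of log2 fold changes are SE, and errors of levels are SD. The p-values measure the spread between replicates, and intervals and counts in the lowest library cover no other error. Ratios of FPKM were compared by exact permutation tests. The script was tested on simulated data. Alternatives were DESeq2 1.42.0, limma 3.58.1 on log2(FPKM + 1), total library sizes, other filters, a replicate block, removal of a gene length trend, the compared groups only, each library left out, and, added after seeing the data, both libraries that stood apart left out.

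The members and lists were chosen with earlier results of these data known. The genes named were the 9 members, Keap1 and Ccnf, a fixed set of pathway genes, and the genes whose log2 CPM had the highest Pearson correlation with each member among genes with a mean of at least 1 log2 CPM. Genes outside this rule are marked as such. One gene under the rule is not reported here. Same-numbered replicates of different groups did not deviate together, so replicate numbers were not used to pair samples.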

Additional observations from a re-analysis of the deposited data

Results flagged for a closer look

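The effect of siKEAP1 differed between cells with and without CCNF depletion, by the interaction term of the edgeR fit, for 6 of the 9 transcripts. The log2 interaction was -1.60 for Gclc (adjusted p = 5.20e-06), -1.54 for Slc7a11 (adjusted p = 0.000358), -1.48 for Gclm (adjusted p = 1.44e-06), -1.29 for Gss (adjusted p = 3.29e-05), -0.96 for Gsr (adjusted p = 2.85e-05) and -0.56 for Glrx (adjusted p = 0.00442; all edgeR). In each of the 6, every siKEAP1/siCCNF library lay below every siKEAP1 library. In that comparison 26.9% of all tested genes were called lower, and the share that separated without overlap is not given here. Both groups also enter the interaction, so the separation is not independent of it.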

How the results depend on the processing

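Members differed in how far their calls depended on the settings. The siKEAP1 calls of Gclc, Gclm, Gss, Gsr, Slc7a11, Ggct and Glrx and the 6 negative interactions were made under every alternative fit. The more than 2-fold rule, applied to the main fit, left out Ggct and Glrx in siKEAP1 (log2 0.93 and 0.94). It also left out the Gsr and Glrx interactions (log2 -0.96 and -0.56). Over the alternatives of the 9 members' log2 fold changes, 1054 of 1125 kept direction and side of the threshold, 49 lost a call, 8 gained one and 14 changed sign. With the more than 2-fold rule the members called were 5 in siKEAP1, 0 in siCCNF and 1 in siKEAP1/siCCNF against siCONTROL and 2 in siKEAP1/siCCNF against siCCNF, and the genes called in the 6 contrasts were 1735, 1719, 1554, 2191, 110 and 936; pathway neighbours called fell to 4 of 59 in siKEAP1 and 7 of 59 in siCCNF, where 11.5% and 11.4% of all tested genes passed this rule. Members called in siCCNF were 3 with the compared groups only and 3 to 6 with 1 library left out. The main fit called 5 of 9, where 47.9% of all tested genes were called. The shares of tested genes called under these other settings are not given here.

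Genes called in siKEAP1/siCCNF against siCCNF were 785, and were 1257 by DESeq2, 1194 with the length trend removed, 516 with the compared groups only, 363 to 1404 with 1 library left out, and 2186 without both libraries that stood apart. The interaction gave 3181 genes, and 2429 to 4806 when 1 library or both libraries were left out. Reversed values lay near 0. Gss in siCCNF was -0.016 with total library sizes and -0.045 to 0.084 with 1 library left out. Chac1 in siKEAP1/siCCNF against siCONTROL was -0.010 with the length trend removed and -0.10 to 0.24 with 1 library left out. Slc3a2 against siCCNF was 0.020 with total library sizes and -0.066 to 0.026 with 1 library left out. The Slc3a2 interaction ranged from -0.0054 to 0.081 and the Chac1 interaction from -0.017 to 0.47 when 1 library or both libraries were left out. The cause was not tested.

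On the log2 scale, the Gclc to Gclm ratio of siKEAP1/siCCNF was 0.51 to 0.69 above siKEAP1 and 0.38 to 0.55 above siCCNF, and the Slc7a11 to Slc3a2 ratio -2.00 to -1.79 against siKEAP1, with 1 library left out. Of 18 same-number pairs, 4 had a correlation of deviations over 0.1 (range -0.268 to 0.204), and 6 of 12 libraries correlated best with their own number. With the replicate block 7, 4, 5, 8, 5 and 6 members were called in the 6 contrasts, where Chac1 in siKEAP1 (adjusted p = 0.0512, edgeR) and Ggct in siCCNF (adjusted p = 0.0606, edgeR) were not. The counts of all genes called with the replicate block are not given here. Slc7a11, Chac1 and Ggct, with 71 to 98 counts in their lowest library, were the members most limited by depth.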

Other observations

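3 further genes of the lists were picked after their values were seen, from among those with large log2 fold changes. Slc6a9, a glycine transporter, was at 7.64 ± 1.31 CPM in siCONTROL, 37.8 ± 3.07 in siKEAP1, 11.1 ± 0.245 in siCCNF and 12.2 ± 1.35 in siKEAP1/siCCNF (SD, n = 3). The rise in siKEAP1 was 4.94-fold (adjusted p = 1.59e-08, edgeR), with an interaction of -2.16 ± 0.17 on the log2 scale (adjusted p = 5.20e-06, edgeR). Glycine is the amino acid that glutathione synthetase adds.

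Dpep1, a dipeptidase that can cleave cysteinyl-glycine, was higher after CCNF depletion, at low levels in all groups (lowest library 0.139 CPM, in siKEAP1). Its log2 fold changes, 1.62 in siCCNF and 2.30 in siKEAP1/siCCNF, were as low as 0.46 and 0.77 under the alternatives, with both calls kept. It was at 0.548 ± 0.201 CPM in siCONTROL, 0.287 ± 0.150 in siKEAP1, 1.70 ± 0.403 in siCCNF and 2.75 ± 0.861 in siKEAP1/siCCNF, and rose 3.08-fold in siCCNF (adjusted p = 0.00277, edgeR) and 4.93-fold in siKEAP1/siCCNF (adjusted p = 0.000199, edgeR). Sesn2, sestrin 2, a stress-induced regulator of growth signalling, rose in all 3 depletion groups. Its level was 30.0 ± 1.38 CPM in siCONTROL, 60.5 ± 4.49 in siKEAP1, 92.4 ± 4.25 in siCCNF and 95.9 ± 3.90 in siKEAP1/siCCNF, which is 2.02-fold, 3.08-fold and 3.20-fold above siCONTROL (adjusted p = 2.23e-07, 6.50e-09 and 5.09e-09, edgeR).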
